A study of Homo sapiens with 16 samples.

Results

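G0S2 and 9 further genes of lipid droplet storage were followed through 4 stages of an isogenic fibroblast model at 2 oxygen levels. The 10 genes are G0S2 and HILPDA, both inhibitors of adipose triglyceride lipase, PNPLA2, the gene of that lipase, ABHD5, its co-activator, PLIN2 and PLIN3, which code for coat proteins of lipid droplets, ANGPTL4, a secreted inhibitor of lipoprotein lipase, and FABP3, FABP4 and FABP5, which code for fatty acid binding proteins. They are 10 of 19356 protein-coding genes in the deposited expression table, and they were chosen by name around a value already known from these data, the high level of G0S2 in metastasizing cells at 3% oxygen. The values of G0S2 in that group are therefore given as a description without a test.

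The model starts from BJ, a human foreskin fibroblast cell line. The 4 stages are primary BJ cells, cells immortalized with hTERT, cells transformed with hTERT and SV40 Large-T, and metastasizing cells that carry hTERT, SV40 Large-T and mutated H-Ras. Each stage is 1 engineered line and stands for its genotype only in that line. All cells were kept in the same serum-containing medium for 6 passages, at atmospheric oxygen or at 3% oxygen, which the submitters call moderate hypoxia. Every stage and oxygen level has 2 libraries from duplicate plates grown in parallel, called replicate a and replicate b, which gives 8 groups and 16 libraries. p-values therefore measure the spread between plates of a line, which may be technical, and the smallest two-sided p of an exact permutation test at this size is 0.333.

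Lipid droplets store triglyceride and sterol esters under a coat of perilipins. Adipose triglyceride lipase takes the first fatty acid off stored triglyceride, ABHD5 activates it, and G0S2 and HILPDA bind and inhibit it. HILPDA, ANGPTL4 and PLIN2 are known targets of hypoxia-inducible factors or of the PPAR receptors, and fatty acid binding proteins carry fatty acids through the cytosol to membranes, mitochondria or the nucleus.

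Expression is given as TPM, a level corrected for transcript length and for the total of the library, summed over all transcripts of a gene. Read numbers cannot be recovered from TPM, so the depth behind each value is unknown. Fold changes are differences of log2(TPM + 0.5), which understates the change of weakly expressed genes. They were tested with limma over all 16 libraries, with p-values adjusted by Benjamini-Hochberg over all genes tested in a comparison. A gene was called when the adjusted p was under 0.01, the change was beyond 2-fold and the mean was at least 1 TPM in a compared group. Among expressed genes, 1.83% to 4.08% differed more than 2-fold between the replicates of 7 groups, against 11% (1301 of 11843 genes) in metastasizing cells at 3% oxygen. TERT was listed at 0 to 0.543 TPM in the 4 primary libraries and at 31.6 to 193 TPM in the 12 later ones. Of 10 fibroblast marker genes, all averaged at least 1 TPM, with COL1A1 at 107 to 3902 TPM and the lowest single value in DCN, at 2.23 TPM. Of 8 adipocyte markers, only LIPE and ADIPOR2 averaged at least 1 TPM, and ADIPOQ, LEP, PLIN1, CIDEC and PCK1 stayed at or under 0.203 TPM in every library. In each of the macrophage, endothelial and keratinocyte lists 1 gene averaged at least 1 TPM. These were CD68 at 42.4 to 162 TPM, TEK at 0 to 10.3 TPM and KRT10 at 8.18 to 15 TPM. TYROBP and KRT1 were at 0 throughout.

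**Figure D1:**
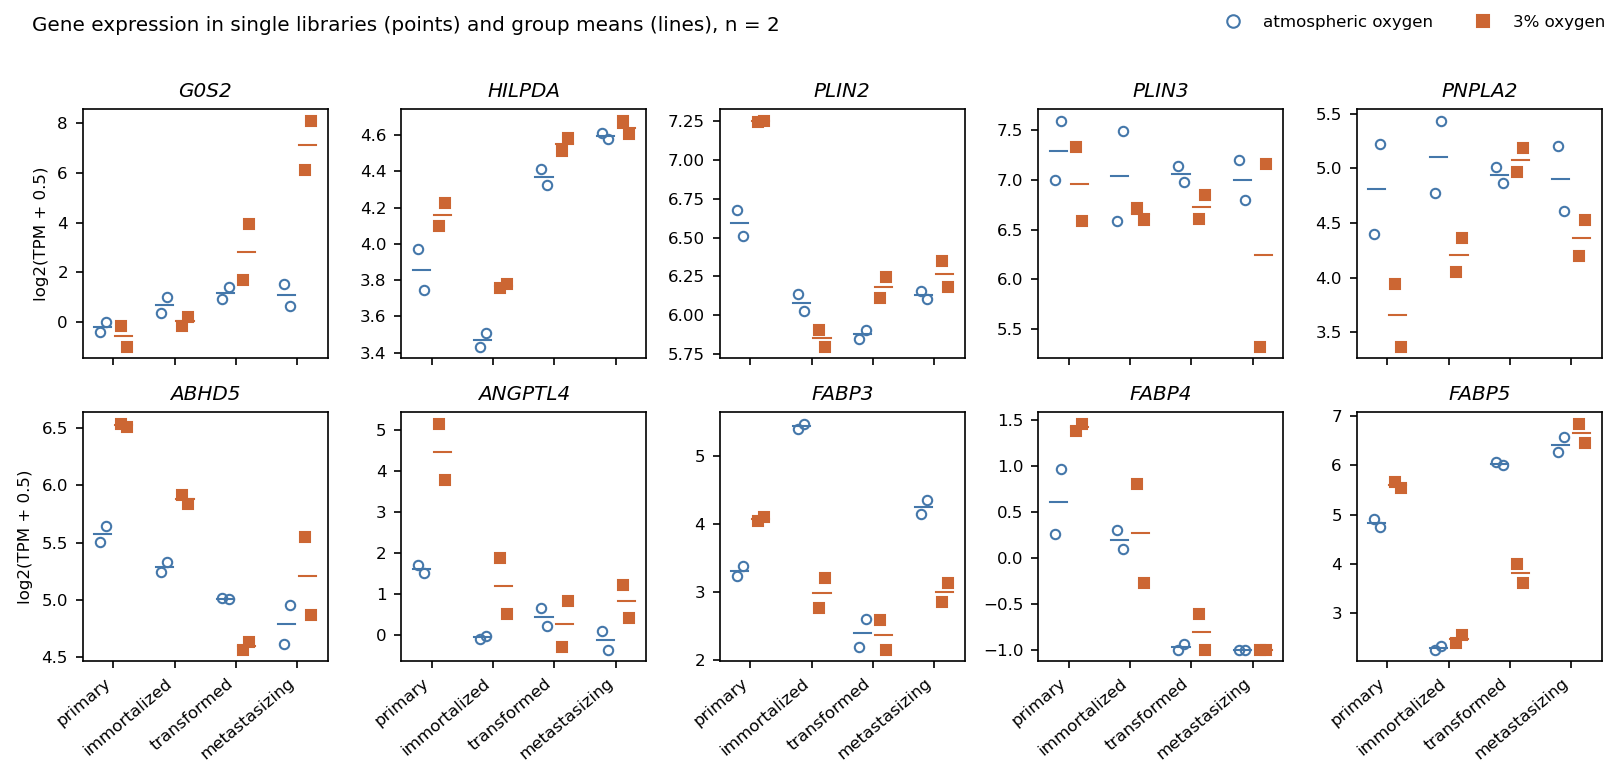
log2(TPM + 0.5) of the 10 genes in each of the 16 libraries, by stage, with open circles for atmospheric oxygen, filled squares for 3% oxygen and lines for the mean of the 2 replicates; each panel has its own vertical scale. G0S2 is highest in metastasizing cells at 3% oxygen (69.6 and 276 TPM), PLIN2, ABHD5 and ANGPTL4 are highest in primary cells at 3% oxygen, FABP3 is highest in immortalized cells at atmospheric oxygen, and FABP5 is lowest in immortalized cells.

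G0S2 lies on chr1:209848757-209849735 (GRCh37, plus strand) and was measured through a single transcript. In primary cells it was at 0.259 and 0.501 TPM at atmospheric oxygen and at 0.392 and 0 TPM at 3% oxygen (replicates a and b). In immortalized cells the values were 0.801 and 1.53 TPM at atmospheric oxygen and 0.40 and 0.649 TPM at 3% oxygen. These 8 libraries hold G0S2 near or under the level counted as expressed.

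In transformed cells G0S2 was at 1.41 and 2.12 TPM at atmospheric oxygen and at 2.75 and 14.8 TPM at 3% oxygen. In metastasizing cells it was at 2.40 and 1.07 TPM at atmospheric oxygen and at 69.6 and 276 TPM at 3% oxygen. The 2 metastasizing libraries at 3% oxygen were thus above the other 14, and they differed 3.96-fold from each other, while those of transformed cells at 3% oxygen differed 5.37-fold. The mean in metastasizing cells was 173 ± 146 TPM (SD, n = 2) at 3% oxygen and 1.74 ± 0.940 TPM at atmospheric oxygen, a ratio of 99.2. On the log2 scale the difference was 6.02 (SE 0.73), and it lay between 5.03 and 7.01 when single libraries were left out. Against transformed cells at 3% oxygen it was 4.30 (SE 0.73), and the oxygen effect was 4.37 (SE 1.03) larger in metastasizing than in transformed cells. These 3 values belong to the group for which the genes were chosen and carry no test.

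The level of HRAS, the gene of H-Ras, was highest in the same 2 libraries. It was at 143 and 772 TPM in metastasizing replicates a and b at 3% oxygen, and replicate b was also the higher for G0S2. At atmospheric oxygen, where G0S2 was low, HRAS was at 94.6 and 78.1 TPM in metastasizing cells, below the 120 and 99.0 TPM of transformed cells. In transformed cells at 3% oxygen, where G0S2 was at 2.75 and 14.8 TPM, HRAS was lower than at atmospheric oxygen, at 49.4 and 61.8 TPM. TPM do not show which allele is expressed, stages are named here as the labels name them, and the part of HRAS or of a difference between plates in the G0S2 level was not tested.

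Ordered by mean, the G0S2 level of metastasizing cells at 3% oxygen was followed by transformed cells at 3% oxygen, and both stood clear of the next group. Transformed, metastasizing and immortalized cells at atmospheric oxygen came next with overlapping libraries. Immortalized cells at 3% oxygen and primary cells at either oxygen level were lowest, again with overlap between neighbours. Outside the group used to choose it, G0S2 passed the test in 1 of 8 comparisons. From immortalized to transformed cells at 3% oxygen it rose by a log2 fold change of 2.79 (SE 0.73, adjusted p = 0.0094, limma). This call lies close to the threshold and was lost in most fits with a library left out. G0S2 entered that comparison only through transformed cells, as its mean in immortalized cells at 3% oxygen was 0.525 TPM. Its p-value there is therefore no separate support for a rise. The adjusted p ran from 0.0022 to 0.0372 over the alternative fits, and without transformed replicate b at 3% oxygen the value was 1.68 (adjusted p = 0.0969). The oxygen effect in transformed cells alone was 1.66 (SE 0.73, adjusted p = 0.101, limma), and 0.54 without replicate b at 3% oxygen.

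HILPDA, the other inhibitor, did not share that pattern. It was expressed in every library, at 10.3 to 25.1 TPM, a 2.43-fold range. At atmospheric oxygen its replicates were at 15.2 and 12.9 TPM in primary cells, 10.3 and 10.9 TPM after immortalization, 20.8 and 19.5 TPM after transformation and 23.9 and 23.4 TPM in metastasizing cells. At 3% oxygen they were at 16.6 and 18.2, 13.0 and 13.2, 22.3 and 23.5, and 25.1 and 23.8 TPM in the same order of stages. The level was lowest in immortalized cells, and the oxygen levels overlapped only in metastasizing cells. The oxygen effect was 0.30 (SE 0.11) in primary, 0.29 (SE 0.11) in immortalized and 0.18 (SE 0.11) in transformed cells, with adjusted p of 0.0729, 0.0774 and 0.243 (limma). In metastasizing cells it was 0.047, with a 95% interval from -0.20 to 0.30. HILPDA was called in 0 of 13 comparisons, and its unadjusted p was under 0.05 in 6 of them, a level that 22% to 60.8% of all genes reached by comparison.

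PNPLA2, on chr11:818914-825573 (GRCh37, plus strand), was lowest in primary cells at 3% oxygen, at 14.9 and 9.82 TPM against 20.6 and 36.9 TPM at atmospheric oxygen. In immortalized cells the replicates were at 16.1 and 20.1 TPM at 3% oxygen and at 26.9 and 42.8 TPM at atmospheric oxygen. The libraries of the oxygen levels did not overlap in these stages or in metastasizing cells, and they overlapped in transformed cells. Over all genes tested, 58.7% to 72.8% by stage had libraries that did not overlap. The difference was -1.16 (SE 0.32, adjusted p = 0.0212) in primary and -0.90 (SE 0.32, adjusted p = 0.0585) in immortalized cells, and neither passed the test (limma). In transformed cells PNPLA2 was at 30.7 and 36.0 TPM at 3% oxygen and at 31.7 and 28.7 TPM at atmospheric oxygen. In metastasizing cells it was at 17.8 and 22.5 TPM at 3% oxygen and at 36.3 and 23.9 TPM at atmospheric oxygen. The corresponding differences were 0.14 (95% interval -0.56 to 0.84) and -0.55 (95% interval -1.25 to 0.15). The main protein-coding transcript held 53.8% to 79.9% of the gene's TPM, and transcripts with a retained intron together held 20.1% to 46.2%.

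ABHD5, the co-activator, lies on chr3:43731600-43775863 (GRCh37, plus strand) and was highest in the primary and immortalized lines at 3% oxygen. Its replicates were at 92.6 and 90.9 TPM in primary cells at 3% oxygen, against 44.9 and 49.4 TPM at atmospheric oxygen. In immortalized cells they were at 60.0 and 56.6 TPM against 37.3 and 39.8 TPM. In transformed cells the order was the opposite, with 23.1 and 24.3 TPM at 3% oxygen and 31.8 and 31.6 TPM at atmospheric oxygen. In metastasizing cells the groups overlapped, with 46.2 and 28.6 TPM at 3% oxygen and 24.0 and 30.5 TPM at atmospheric oxygen. In primary cells the difference of 0.96 (SE 0.18, adjusted p = 0.00367, limma) met the p threshold and lay just under the required 2-fold. In the other stages it was 0.59 (adjusted p = 0.0353), -0.41 (adjusted p = 0.103) and 0.42 (adjusted p = 0.109). The stage comparison at 3% oxygen gave the only call, a fall by 1.28 on the log2 scale (SE 0.18, adjusted p = 0.000237, limma) from immortalized to transformed cells. ANO10, which overlaps ABHD5 on the opposite strand, was at 37.4 to 117 TPM. The libraries came from a strand-marking kit and kallisto was run at its default settings, and the part of ANO10 in the ABHD5 values was not tested.

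**Figure D2:**
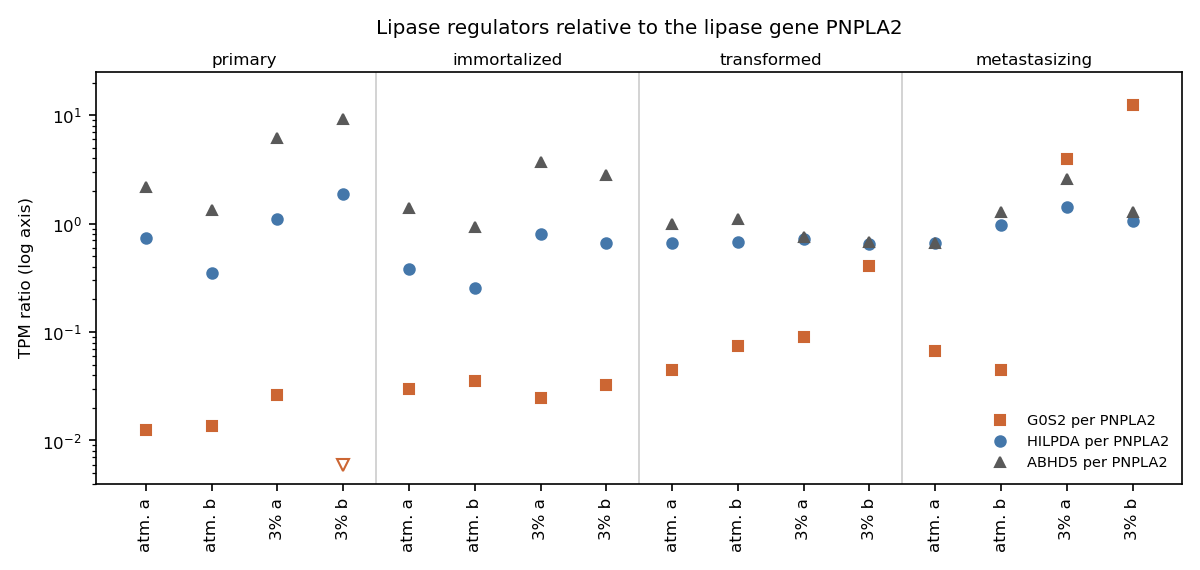
TPM of G0S2 (squares), HILPDA (circles) and ABHD5 (triangles) divided by the TPM of PNPLA2 in each of the 16 libraries, on a log axis, ordered by stage and oxygen; an open triangle marks G0S2 listed at 0. G0S2 exceeds PNPLA2 only in metastasizing cells at 3% oxygen (ratios of 3.92 and 12.3), while the other 14 libraries lie at or under 0.41.

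Set against the lipase gene in the same library, G0S2 was at 0 to 0.41 TPM per TPM of PNPLA2 in 14 libraries and at 3.92 and 12.3 in metastasizing replicates a and b at 3% oxygen. As this ratio contains the G0S2 values the genes were chosen for, it is a description. HILPDA per PNPLA2 lay between 0.255 and 1.86 and was highest in primary replicate b at 3% oxygen. ABHD5 per PNPLA2 was 6.21 and 9.25 in primary cells at 3% oxygen and 2.18 and 1.34 at atmospheric oxygen, and it was 3.72 and 2.82 against 1.38 and 0.929 in immortalized cells. In transformed cells it was lower at 3% oxygen, with 0.752 and 0.676 against 1.0 and 1.10. TPM ratios compare transcripts and say nothing of protein.

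PLIN2, on chr9:19108373-19149288 (GRCh37, minus strand), coats droplets in most cell types and was strongly expressed throughout, at 55.1 to 152 TPM. In primary cells it was at 151 and 152 TPM at 3% oxygen and at 102 and 90.8 TPM at atmospheric oxygen. The libraries stood apart, and the difference was 0.65 (SE 0.095, adjusted p = 0.00081, limma), a 1.57-fold ratio of means that lies under the required 2-fold. Both primary libraries at each oxygen level were above every library of the later stages, which reached 81.2 TPM at most. From primary to immortalized cells at 3% oxygen, PLIN2 fell by 1.39 on the log2 scale (SE 0.095, adjusted p = 2.03e-06, limma), to 59.5 and 55.1 TPM. In the later stages it was at 57.1 to 70.9 TPM at atmospheric oxygen and at 55.1 to 81.2 TPM at 3% oxygen. The oxygen difference there was -0.23 (adjusted p = 0.0986) in the immortalized line, 0.30 (adjusted p = 0.0297) after transformation and 0.14 (adjusted p = 0.299) in metastasizing cells.

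PLIN3, the second coat protein gene (chr19:4838353-4867706, GRCh37, minus strand), was the most strongly expressed of the 10 by median, at 121 TPM over the 16 libraries. Its replicates differed widely, from 39.4 TPM in metastasizing replicate a at 3% oxygen to 143 TPM in replicate b. In primary cells it was at 127 and 193 TPM at atmospheric oxygen and at 160 and 95.8 TPM at 3% oxygen. The oxygen differences of -0.34, -0.38, -0.34 and -0.76, in the order of the stages, had a standard error of 0.50 each and adjusted p from 0.276 to 0.651 (limma). PLIN3 was called in 0 of 13 comparisons, and its unadjusted p was under 0.05 in 0 of them. Without metastasizing replicate b at 3% oxygen the last difference was -1.68 (adjusted p = 0.00799), and without replicate a it was 0.17. In primary cells the 95% interval of the difference ran from -1.44 to 0.76.

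ANGPTL4, on chr19:8428173-8439254 (GRCh37, plus strand), had the widest range among the genes detected in all libraries, from 0.283 to 34.9 TPM. In primary cells its replicates were at 34.9 and 13.3 TPM at 3% oxygen and at 2.75 and 2.34 TPM at atmospheric oxygen. It rose by 2.86 on the log2 scale (SE 0.54, adjusted p = 0.0035, limma), a 9.46-fold ratio of means, and it was the only one of 9 tested genes called in that comparison, with 5.30% of all genes called. The adjusted p ran from 0.0018 to 0.0243 over the alternative fits. The call was lost without either primary library at atmospheric oxygen (adjusted p = 0.0224 and 0.0242) and without primary replicate a at 3% oxygen (2.18, adjusted p = 0.0313).

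In the later stages ANGPTL4 was low, and replicates differed up to 3.97-fold. It was at 3.15 and 0.941 TPM in immortalized cells at 3% oxygen and at 0.436 and 0.491 TPM at atmospheric oxygen, a difference of 1.25 (SE 0.54, adjusted p = 0.112). In transformed cells it was at 0.323 and 1.28 TPM at 3% oxygen and at 1.08 and 0.668 TPM at atmospheric oxygen, too low to be tested. In metastasizing cells it was at 1.84 and 0.842 TPM at 3% oxygen and at 0.578 and 0.283 TPM at atmospheric oxygen, a difference of 0.95 (SE 0.54, adjusted p = 0.211). From primary to immortalized cells at 3% oxygen it fell by 3.27 on the log2 scale (SE 0.54, adjusted p = 0.00115, limma). That call was lost without primary replicate a (adjusted p = 0.0133) or immortalized replicate b (adjusted p = 0.0144) at 3% oxygen.

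**Figure D3:**
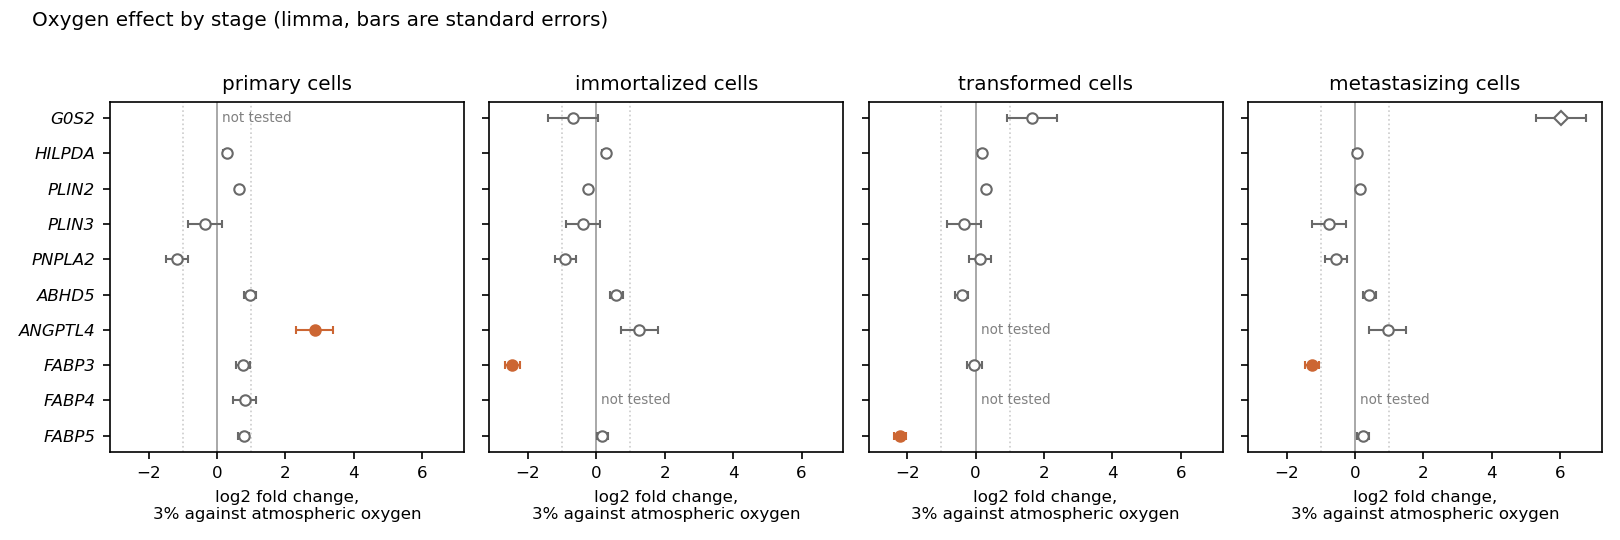
log2 fold change of 3% against atmospheric oxygen for the 10 genes in each stage, with standard errors from limma; filled circles are called, open circles are not, and the diamond is G0S2 in metastasizing cells, which carries no test. Dotted lines mark a 2-fold change. The called genes are ANGPTL4 (2.86, primary), FABP3 (-2.45, immortalized), FABP5 (-2.22, transformed) and FABP3 again (-1.26, metastasizing).

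FABP3, the heart-type fatty acid binding protein gene on chr1:31838100-31849697 (GRCh37, minus strand), differed between stages in its oxygen effect. In primary cells it was at 16.1 and 16.8 TPM at 3% oxygen and at 8.94 and 9.96 TPM at atmospheric oxygen. In immortalized cells it was at 6.29 and 8.79 TPM at 3% oxygen and at 41.7 and 44 TPM at atmospheric oxygen, its highest level. These stages stood apart in opposite directions. The oxygen difference was 0.77 (SE 0.21, adjusted p = 0.0197) in primary cells, which did not pass, and FABP3 fell by 2.45 on the log2 scale (SE 0.21, adjusted p = 4.54e-05, limma) in immortalized cells, as the only one of 9 tested genes, with 4.91% of all genes called. The effect was lower in immortalized than in primary cells by a tested difference of -3.22 (SE 0.30, adjusted p = 0.00025, limma), the only call among 10 genes, with 1.86% of all genes called.

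In transformed cells FABP3 was low at both oxygen levels, with 5.52 and 3.96 TPM at 3% and 4.10 and 5.63 TPM at atmospheric oxygen. The oxygen effect there was -0.035 (95% interval -0.49 to 0.42), and it was 2.41 (SE 0.30, adjusted p = 0.000217, limma) above that of immortalized cells. In metastasizing cells FABP3 was at 6.72 and 8.34 TPM at 3% oxygen and at 17.3 and 19.9 TPM at atmospheric oxygen. It fell by 1.26 (SE 0.21, adjusted p = 0.00153, limma), the only call among 8 tested genes beside G0S2, with 7.66% of all genes called. The adjusted p ran from 0.00129 to 0.0548 over the alternative fits, and it was 0.017 without metastasizing replicate b at atmospheric oxygen.

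At atmospheric oxygen FABP3 passed the test at each step of the model. It rose by 2.13 (adjusted p = 2.28e-05) from primary to immortalized cells, fell by 3.03 (adjusted p = 6.54e-07) to transformed cells and rose by 1.84 (adjusted p = 0.000221, limma) to metastasizing cells, each with a standard error of 0.21. At 3% oxygen it fell by 1.09 (SE 0.21, adjusted p = 0.00262) from primary to immortalized cells. That fall lost its call without either primary library at 3% oxygen (adjusted p = 0.0163 and 0.0207) or without immortalized replicate a at 3% oxygen (-0.87, adjusted p = 0.0339). The main protein-coding transcript held 7.16% to 86.1% of the gene's TPM by library, with 31.4 and 37.3 TPM in immortalized cells at atmospheric oxygen and 0.833 and 3.42 TPM at 3% oxygen. With protein-coding transcripts alone the oxygen effect in transformed cells was 0.51 (adjusted p = 0.379) and thus of the opposite sign.

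FABP5, the epidermal-type fatty acid binding protein gene on chromosome 8, was lowest in immortalized cells. There it was at 4.30 and 4.58 TPM at atmospheric oxygen and at 4.78 and 5.39 TPM at 3% oxygen. In primary cells it was at 29.4 and 26.2 TPM at atmospheric oxygen and at 50.2 and 46.1 TPM at 3% oxygen, a difference of 0.78 (SE 0.17, adjusted p = 0.00655, limma) that lies under the required 2-fold. In immortalized cells the difference was 0.18 (SE 0.17, adjusted p = 0.467).

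In transformed cells FABP5 was at 15.6 and 11.7 TPM at 3% oxygen and at 66.0 and 63.5 TPM at atmospheric oxygen. It fell by 2.22 (SE 0.17, adjusted p = 1.43e-05, limma), the only call among 8 tested genes, with 7.48% of all genes called. In metastasizing cells it was high at both levels, at 114 and 87.2 TPM at 3% oxygen and at 76.6 and 94.2 TPM at atmospheric oxygen, and the difference was 0.23 (SE 0.17, adjusted p = 0.318). The oxygen effect differed by -2.40 (SE 0.24, adjusted p = 7.33e-05) between transformed and immortalized cells, where FABP3 and FABP5 were 2 of 9 tested genes called, with 12.0% of all genes called. Between metastasizing and transformed cells it differed by 2.45 (SE 0.24, adjusted p = 0.000104, limma), where FABP5 was the only one of 8 called, with 8.46% of all genes called.

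At the first steps of the model at atmospheric oxygen, FABP5 moved opposite to FABP3. It fell by 2.52 (adjusted p = 1.32e-06) from primary to immortalized cells and rose by 3.72 (adjusted p = 4.38e-08, limma) to transformed cells. At 3% oxygen it fell by 3.12 (adjusted p = 3.65e-07), rose by 1.33 (adjusted p = 0.0001) and rose by 2.84 (adjusted p = 3.37e-06) from stage to stage. The standard error was 0.17 in all 5 comparisons. As a share of the summed TPM of FABP3, FABP4 and FABP5, FABP3 made up 89.2% and 89.5% in immortalized cells at atmospheric oxygen, and FABP5 made up 94.2% and 91.8% in transformed cells at that oxygen level. These shares leave out the FABP5 pseudogene FABP5P7, described next.

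Part of the FABP5 transcript is shared with a pseudogene. FABP5P7 is a processed pseudogene whose listed transcript of 405 bases is identical to FABP5 at all 405 positions, so that reads from this stretch could belong to either, while 271 bases of the FABP5 transcript lie outside it. The pseudogene was at 0 to 145 TPM, with a median of 38.4 TPM. The 15 listed FABP5 pseudogenes together held 10.5% to 242% of the FABP5 value of a library. With FABP5P7 added, the oxygen effect in transformed cells was -2.02 (SE 0.30, adjusted p = 0.00063, limma), and the differences of the oxygen effect were -3.47 (adjusted p = 0.000219) and 2.43 (adjusted p = 0.00236). The sum gave a rise of 1.45 (adjusted p = 0.00534) in immortalized cells at 3% oxygen, where FABP5 alone was not called and FABP5P7 was at 9.96 and 13.0 TPM against 0 and 2.92 TPM at atmospheric oxygen. The step from immortalized to transformed cells at 3% oxygen was no longer called (0.83, adjusted p = 0.0424), and the other stage steps named for FABP5 kept their calls.

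**Figure D4:**
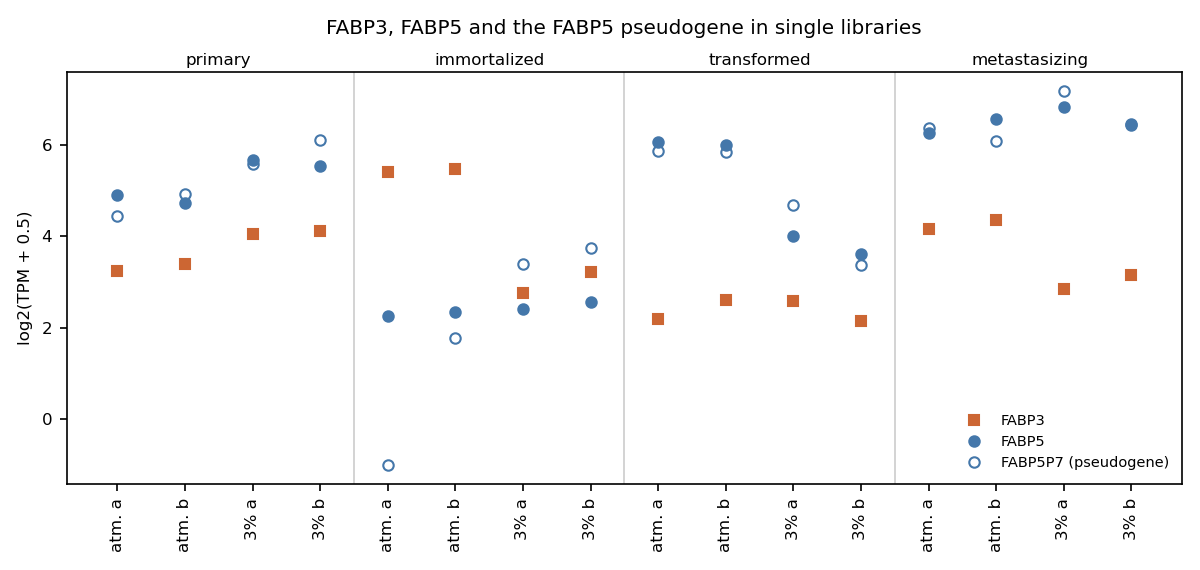
log2(TPM + 0.5) of FABP3 (squares), FABP5 (filled circles) and the identical-sequence pseudogene FABP5P7 (open circles) in the 16 libraries, ordered by stage and oxygen. FABP3 is above FABP5 only in immortalized cells, and FABP5 falls from 66.0 and 63.5 TPM to 15.6 and 11.7 TPM at 3% oxygen in transformed cells, where FABP5P7 was at 57.9 and 56.8 TPM and at 25.4 and 9.81 TPM. With FABP5P7 added, FABP5 in immortalized cells at 3% oxygen is at 14.7 and 18.4 TPM, above FABP3 at 6.29 and 8.79 TPM.

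FABP4, the adipocyte-type gene and also a marker of macrophages and capillary endothelium, was near the limit of detection. It reached 1 TPM in 4 of 16 libraries and was listed at 0 in 6. In primary cells it was at 2.10 and 2.25 TPM at 3% oxygen and at 0.694 and 1.45 TPM at atmospheric oxygen, a difference of 0.81 (SE 0.34, adjusted p = 0.101, limma). In immortalized cells it was at 1.25 and 0.330 TPM at 3% oxygen and at 0.730 and 0.571 TPM at atmospheric oxygen. Transformed libraries held 0 to 0.155 TPM, and all 4 metastasizing libraries were listed at 0. FABP4 could be tested in 4 comparisons and was called in 0, with an unadjusted p under 0.05 in 2.

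Counted over the steps of the model, 2 of 10 genes tested were called from primary to immortalized cells at atmospheric oxygen, with 12.2% of all genes called. From immortalized to transformed cells it was 2 of 8, with 24.3% of all genes, and from transformed to metastasizing cells 1 of 8, with 4.12%. At 3% oxygen the largest count was 4 of 9 from primary to immortalized cells, where PLIN2, ANGPTL4, FABP3 and FABP5 fell and 9.23% of all genes were called. The median of the 9 tested was -1.09, against -0.0598 over all genes. The next steps gave 3 of 9, with G0S2 and FABP5 up and ABHD5 down against 16.3% of all genes, and 1 of 8, FABP5, against 5.92%. In the count of 3, G0S2 was tested only through its level in transformed cells, so its call is no separate support for a rise. FABP3 and FABP5 were called in 8 of 13 comparisons each, and no other gene of the list in more than 2.

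The median oxygen effect of the tested members was 0.77 in primary and -0.23 in immortalized cells, then 0.053 in transformed and, without G0S2, 0.093 in metastasizing cells. Over all genes tested it was 0.0768, 0.11, 0.0133 and -0.128. In primary cells 8 of the 9 genes tested had libraries that did not overlap between the oxygen levels, and 7 of these 8 were higher at 3% oxygen. The exception in direction was PNPLA2, and the gene with overlap was PLIN3. Over all genes tested in that comparison, 67.7% had libraries that did not overlap, and 60.2% of these were higher at 3% oxygen, while 5.30% of all genes were called.

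Hypoxia-inducible factors bind DNA at a core of ACGTG or GCGTG, and these cores were looked up in RefSeq promoters (GRCh38.p14, windows of 300 bases around the start site) on both strands. An entry was found for 7 of the 10 genes. ACGTG, or CACGT on the other strand, was present in 21.4% of 35116 promoters and GCGTG, or CACGC, in 36.5%. PLIN2 held 3 matches to ACGTG, 2 of which are the same palindromic site read on both strands, while ANGPTL4 and FABP3 held 1 each. G0S2 held no ACGTG and 4 matches to GCGTG. Representative windows of 25 bases upstream of the start are shown for PLIN2, ANGPTL4, FABP3 and G0S2 on the gene strand, core in capitals:
PLIN2, chr9:19127546-19127570 (minus strand, core at -68): gccgcgggtcACGTGctgcggaggc
PLIN2, chr9:19127598-19127622 (minus strand, core at -120): gggcgccgggACGTGcccgagggtg
ANGPTL4, chr19:8363911-8363935 (plus strand, core at -234): aaagaagagtCACGTctcccacggt
FABP3, chr1:31373118-31373142 (minus strand, core at -56): gggcgtgggcCACGTctcctcatgt
G0S2, chr1:209675221-209675245 (plus strand, core at -181): cacagtcggaGCGTGctcagcgcgt
G0S2, chr1:209675355-209675379 (plus strand, core at -47): agcccaggagGCGTGtctcagagaa
PLIN3 held 3 matches to GCGTG, and PLIN2 and FABP3 held 2 each. ABHD5, with more than 1 listed start site, held 1 match to GCGTG or 0 by start site and no ACGTG. PNPLA2 held no match to either core. Matches of this length are common in promoters, and the presence or absence of letters in this window does not show binding.

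Beyond the 10 genes, 96 gene symbols of lipid droplet coat, synthesis, lipolysis, uptake, oxidation and PPAR signalling were listed, and 94 of these symbols were found in the expression table. In primary cells 3 of 62 tested were called at 3% oxygen (2 up, 1 down), and in immortalized cells 3 of 62 (0 up, 3 down), or 4.84% each, against 5.30% and 4.91% of all genes. In transformed cells it was 5 of 60 (2 up, 3 down), or 8.33%, against 7.48% of all genes. These shares are near the background. In metastasizing cells it was 10 of 61 (6 up, 4 down), or 16.4%, against 7.66% of all genes. CIDEA and GPAT3 are among these 10 and entered the comparison only through the libraries at 3% oxygen, as LIPG did in primary cells. When only the groups compared were fitted, the count in primary cells was 0, with 164 of 12184 genes called. The count in metastasizing cells depends on its replicates, with 6 called without replicate a and 17 without replicate b at 3% oxygen, 4 with array weights and 0 when only these groups were fitted. Over all genes tested in metastasizing cells, array weights called 375 of 12288, and the fit of only these groups called 112. By list in the main fit, 1 gene rose and 1 fell of 4 for coat and fusion, 1 rose of 3 for droplet formation, 1 fell of 8 for other lipases, 1 fell of 16 for oxidation and 1 rose of 7 for PPAR and partner receptors.

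PPARG, the nuclear receptor that drives fat cell genes including FABP4 and PLIN2, was called in 3 stages with changing direction. It was at 5.56 and 4.80 TPM in primary cells at atmospheric oxygen and at 1.13 and 2.18 TPM at 3% oxygen, a fall by 1.44 (SE 0.23, adjusted p = 0.00137, limma). This call was lost with only the groups compared in the fit (adjusted p = 0.0392), without primary replicate a at atmospheric oxygen (adjusted p = 0.0166) and without primary replicate a at 3% oxygen (adjusted p = 0.01). In immortalized cells it fell from 33.3 and 31.9 TPM to 9.73 and 11.8 TPM, by 1.56 (SE 0.23, adjusted p = 0.00088), a call lost without immortalized replicate a at 3% oxygen (adjusted p = 0.013). PPARG rose in metastasizing cells from 1.64 and 2.43 TPM to 9.07 and 9.74 TPM, by 1.98 (SE 0.23, adjusted p = 0.000183), a call lost with only the groups compared in the fit (adjusted p = 0.029).

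In metastasizing cells at 3% oxygen, 3 genes of triglyceride synthesis rose and 1 fell among 14 tested. Of these rises the 2 largest, DGAT2 and GPAT3, are named. DGAT2, which catalyses the last step of triglyceride synthesis, rose by 2.47 (SE 0.37, adjusted p = 0.000774, limma), from 1.12 and 1.35 TPM to 6.51 and 12.6 TPM. In transformed cells its oxygen difference was 1.09 (adjusted p = 0.0405, limma), not called. The oxygen effect of DGAT2 in metastasizing minus transformed cells was not called (1.38, adjusted p = 0.0725, limma). GPAT3, which starts glycerolipid synthesis, rose by 2.04 (SE 0.35, adjusted p = 0.00187), from 0.523 and 0.653 TPM to 5.01 and 3.12 TPM. With array weights the calls of DGAT2 and GPAT3 were lost (adjusted p = 0.0184 and 0.0368, limma). FITM2, of the droplet formation list, is needed for budding of droplets from the endoplasmic reticulum. It rose by 1.73 (SE 0.18, adjusted p = 8.07e-05), from 4.77 and 4.60 TPM to 14.4 and 19.3 TPM. In primary, immortalized and transformed cells the FITM2 difference was 0.68, 0.42 and 0.15 (adjusted p = 0.0164, 0.0988 and 0.536, limma), not called. CIDEA, a droplet fusion protein gene, was at 0 and 0.116 TPM at atmospheric oxygen. It was at 0.910 and 5.45 TPM at 3% oxygen, a rise by 2.38 (SE 0.48, adjusted p = 0.00452), and at or under 0.0949 TPM in every other stage. CIDEA and GPAT3 reached the 1 TPM needed for testing here only through the libraries at 3% oxygen. Their p-values are therefore no separate support for a rise.

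Genes that fell in metastasizing cells at 3% oxygen included those of a lipase and of an enzyme of fatty acid oxidation. LIPE, which codes for hormone-sensitive lipase, fell by 1.47 (SE 0.34, adjusted p = 0.00837, limma), from 11 and 11.1 TPM to 2.51 and 5.26 TPM. In primary, immortalized and transformed cells its oxygen difference was -0.63, -0.62 and -0.59, not called. The oxygen effect of LIPE in metastasizing minus transformed cells was not called either (-0.87, adjusted p = 0.201, limma). The LIPE call in metastasizing cells was lost with no filter on low values (adjusted p = 0.0155) and with median-ratio rescaling (adjusted p = 0.011). Protein-coding transcripts only (adjusted p = 0.029), array weights (adjusted p = 0.0492) and most fits with a library left out lost it as well. CPT1B, the muscle-type carnitine palmitoyltransferase, fell by 2.35 (SE 0.23, adjusted p = 5.89e-05), from 15.1 and 14.2 TPM to 2.37 and 2.59 TPM. GPAT2 fell by 1.17 (SE 0.17, adjusted p = 0.000625), and HSD17B11, a droplet-associated dehydrogenase gene, fell by 1.11 (SE 0.26, adjusted p = 0.00915). With array weights the GPAT2 call was lost (adjusted p = 0.017, limma). The HSD17B11 call was lost with a replicate block (adjusted p = 0.0111) and with no filter on low values (adjusted p = 0.0157). Median-ratio rescaling (adjusted p = 0.0117), array weights (adjusted p = 0.0597) and most fits with a library left out also lost the HSD17B11 call. With only these groups fitted, none of these calls in metastasizing cells passed, and the highest adjusted p over the alternative fits ran from 0.0102 for CPT1B to 0.129 for HSD17B11.

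**Figure D5:**
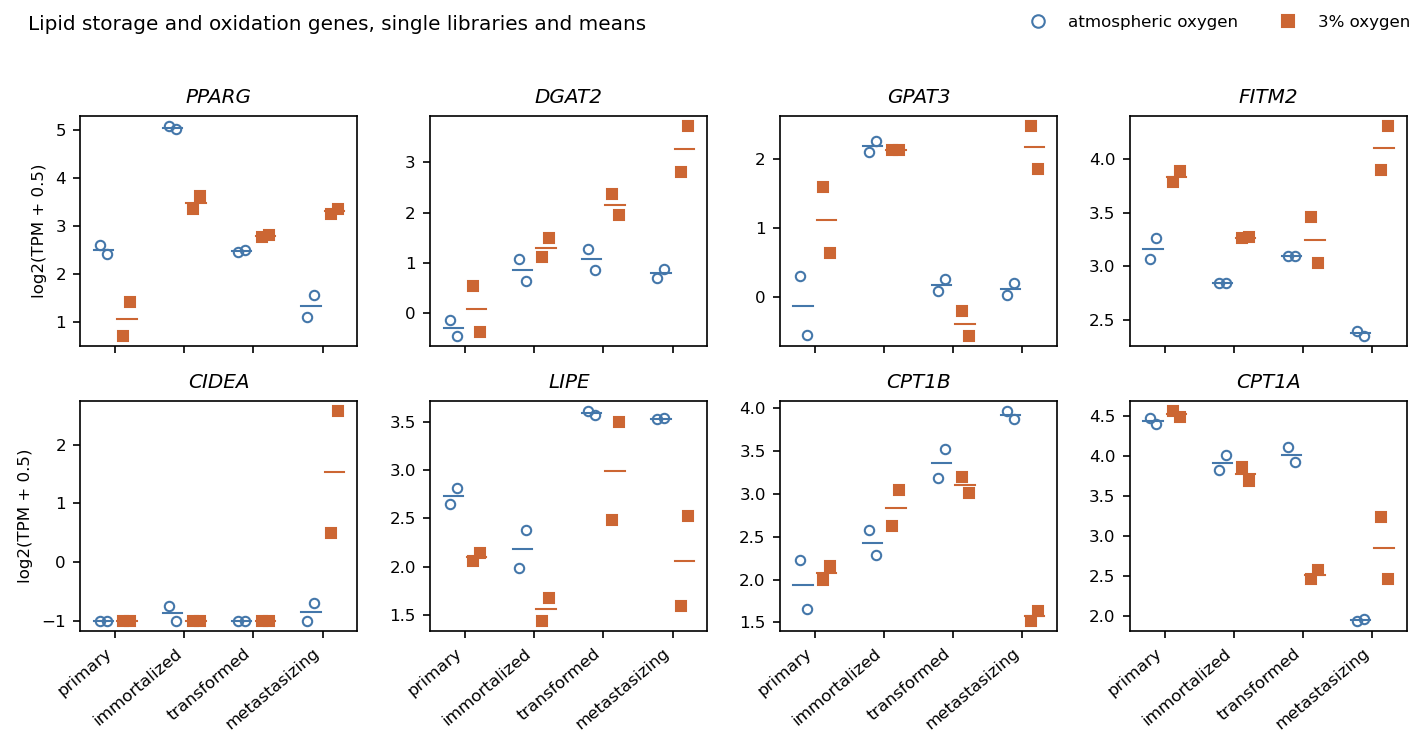
log2(TPM + 0.5) of 8 lipid synthesis, droplet, lipolysis, oxidation and receptor genes in the 16 libraries, by stage, with open circles for atmospheric oxygen, filled squares for 3% oxygen and lines for means; each panel has its own scale. In metastasizing cells the 3% oxygen libraries lie above those at atmospheric oxygen for PPARG, DGAT2, GPAT3, FITM2 and CIDEA and below them for LIPE and CPT1B; PPARG lies lower at 3% oxygen in primary and immortalized cells.

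In transformed cells 2 of 16 tested genes of fatty acid oxidation were called, both down, against 7.48% of all genes called in either direction, and the other 14 were not called. CPT1A, the liver-type carnitine palmitoyltransferase, fell by 1.50 (SE 0.21, adjusted p = 0.000448, limma), from 16.7 and 14.6 TPM to 5.00 and 5.45 TPM, and SLC25A20, the carnitine carrier of mitochondria, fell by 1.59 (SE 0.16, adjusted p = 7.08e-05). VLDLR, a lipoprotein receptor gene, rose by 2.68 (SE 0.20, adjusted p = 1.21e-05), from 4.75 and 5.01 TPM to 41.2 and 27.9 TPM. CEBPB rose by 1.38 (SE 0.31, adjusted p = 0.00652), a call lost when any 1 of the 4 transformed libraries was left out (adjusted p from 0.0107 to 0.0557), with only the groups compared in the fit (adjusted p = 0.013), with no filter on low values (adjusted p = 0.012) and without some libraries of the other stages. GPAT2 fell by 1.12 (SE 0.17, adjusted p = 0.00063).

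In immortalized cells CD36, a fatty acid transporter gene, fell by 2.54 (SE 0.20, adjusted p = 2.8e-05, limma), from 9.54 and 9.29 TPM to 1.16 and 1.24 TPM, beside the fall of FABP3 and PPARG. LDAF1, a partner of seipin in droplet formation, fell by 1.21 (SE 0.13, adjusted p = 0.000182). In primary cells AGPAT5, of phosphatidic acid synthesis, rose by 1.22 (SE 0.16, adjusted p = 0.000373), from 15.1 and 17.0 TPM to 35.7 and 40.5 TPM. In immortalized, transformed and metastasizing cells its difference was 0.80, 0.37 and 0.97 (adjusted p = 0.00371, 0.0841 and 0.00125, limma), under the required 2-fold. LIPG, the endothelial lipase gene, rose in primary cells by 1.64 (SE 0.24, adjusted p = 0.000741), from 0.329 and 0.285 TPM to 1.95 and 2.10 TPM. It reached the level needed for testing in primary cells only through the libraries at 3% oxygen. Both calls in primary cells were lost with only the groups compared in the fit (adjusted p = 0.0119 and 0.0236). None of the 8 other listed fatty acid binding protein symbols was tested in an oxygen comparison. FABP5P3 is a pseudogene and lay outside the protein-coding genes used, and the others were under the level needed for testing.

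By Pearson r with G0S2 over the 16 libraries, the 5 highest of 13146 genes were SYS1 (0.953), SLC22A3 (0.927), MCF2L2 (0.922), RSPO4 (0.912) and ALX1 (0.911). The ranking uses the G0S2 values the genes were chosen for, and libraries of a group share a line and an oxygen level, so it is a description only. Of the 5, MCF2L2, RSPO4 and ALX1 stayed at or under 0.682, 0.369 and 0.282 TPM in the other 14 libraries and entered the search only through metastasizing cells at 3% oxygen, and SLC22A3 reached 1.08 TPM at most outside them. Without those 2 libraries r was 0.875 for SYS1, 0.867 for MCF2L2, 0.679 for SLC22A3, 0.43 for RSPO4 and 0.425 for ALX1. SYS1 was at 30 and 49.2 TPM in the metastasizing libraries at 3% oxygen and at 16.5 to 26.6 TPM in the other 14. Among the listed genes r with G0S2 was highest for HILPDA (0.577) and lowest for FABP4 (-0.626).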

How the data were processed

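RNA was extracted from duplicate plates of each of the 4 BJ stages at both oxygen levels, and libraries were made from mRNA with a stranded kit. Transcripts were quantified by the authors with kallisto (version 0.42.1 in the submitters' processing notes) against GRCh37, and deposited as TPM per transcript. Depth per library is not kept in TPM.

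Of 180253 transcripts listed (1 stray header line was skipped), 151453 were matched to GENCODE 44 on GRCh37, which held 88.2% to 90.1% of a library's TPM, and were summed to 34451 genes, of which 19356 protein-coding genes were used. log2(TPM + 0.5) was fitted in R 4.3.3 with limma 3.58.1, with 1 coefficient for each of the 8 groups and an intensity trend. The groups left 8 residual degrees of freedom. Tables and figures were made with pandas 2.3.3 and matplotlib 3.10.9 under Python 3.11.15 (numpy 2.4.6), and the fit was tested on simulated data. Comparisons were the oxygen levels within a stage, neighbouring stages at each oxygen level, and how the oxygen effect differed from a stage to the next. The authors' edgeR test of estimated counts could not be repeated on TPM.

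The 10 genes and the lipid lists were chosen with earlier results of these data known. Named beside the 10 are, per list and oxygen comparison, at most the 2 called genes of largest change in each direction, the 5 genes most correlated with G0S2, and TERT and HRAS as checks. The letters a and b mark parallel plates and do not pair libraries. Alternatives were a pseudocount of 1 or 0.1, no filter or a filter of 5 TPM, median-ratio rescaling, protein-coding transcripts only, a replicate block, a fit limited to the groups compared, array weights and each library left out. Adding FABP5P7 to FABP5 was chosen after seeing the data. In fits with a library left out, the lone replicate is assumed to vary like the other groups.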

Additional observations from a re-analysis of the deposited data

Results flagged for a closer look

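The oxygen effect of FABP3 and FABP5 differed between neighbouring stages by a test of the difference itself (limma interaction terms, over all genes tested). For FABP3 it was -3.22 (SE 0.30) for immortalized minus primary cells and 2.41 (SE 0.30) for transformed minus immortalized cells. For FABP5 it was -2.40 (SE 0.24) for transformed minus immortalized cells and 2.45 (SE 0.24) for metastasizing minus transformed cells. With FABP5P7 added, the FABP5 differences were -3.47 and 2.43.

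Differences were also called for genes of the lipid lists. Only genes already named for a called oxygen effect in some stage were looked up, a choice that favours finding a difference. Of all genes tested, 1.86%, 12.0% and 8.46% had a called difference, in the order of the comparisons below. For immortalized minus primary cells the difference was -1.90 for LIPG and -3.47 for CD36. For transformed minus immortalized cells it was 1.88 for PPARG (adjusted p = 0.00159, limma), 3.01 for CD36, 2.07 for LDAF1, 1.76 for VLDLR and 2.51 for CEBPB, and it was -1.57 for GPAT2, -2.13 for SLC25A20 and -1.35 for CPT1A. For metastasizing minus transformed cells it was 1.67 for PPARG (adjusted p = 0.0041), 2.59 for GPAT3, 1.58 for FITM2 and 2.39 for CPT1A. It was -1.59 for HSD17B11, -2.03 for VLDLR and -2.10 for CPT1B. In transformed cells CD36 was at 0.0942 to 0.398 TPM and GPAT3 at 0.18 to 0.696 TPM, and in immortalized cells GPAT2 was at 0 to 0.197 TPM. The oxygen effect of these genes was too low to be tested there, so their differences rest on the neighbouring stage. With 2 libraries a group, no group was large enough to look for a single outlying sample.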

How the results depend on the processing

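The number of the 10 genes called in each comparison stayed within 1.5 times under most alternatives, and the exceptions follow. With only the groups compared in the fit, 0 genes were called for oxygen in primary cells, 0 for oxygen in metastasizing cells, 2 from primary to immortalized cells at 3% oxygen and 0 from transformed to metastasizing cells at 3% oxygen. Over all genes that fit called 164 of 12184, 112 of 12288, 983 of 12218 and 0 of 12288 in the same order. The main fit called 646, 941, 1128 and 727. Array weights gave 0 for oxygen in metastasizing cells, where the libraries at 3% oxygen had a weight of 0.241. Over all genes array weights called 375 of 12288 there, against 941 in the main fit. FABP5P7 added to FABP5 gave 2 for oxygen in immortalized cells. With a library left out, the count ran from 0 to 1 for oxygen in primary cells, from 0 to 2 for oxygen in metastasizing cells, from 2 to 4 from primary to immortalized cells at 3% oxygen and from 1 to 3 for the oxygen effect of metastasizing minus transformed cells. The counts of 2 and 3 came without metastasizing replicate b at 3% oxygen, which added PLIN3 to the first and ABHD5 and FABP3 to the second. The cause was not tested.

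FABP3 in transformed cells changed sign with protein-coding transcripts only (0.51), and with a library left out its oxygen effect ran from -0.25 to 0.18. That of PLIN3 ran from -0.71 to 0.03 in primary, -0.84 to 0.067 in immortalized and -1.68 to 0.17 in metastasizing cells. Of 819 further values of single genes under alternative fits, 760 kept direction and call, 57 lost the call, 1 gained one and 1 changed sign. Of 1452 values with a library left out, 1331 kept both, 115 lost the call, 1 gained one and 5 changed sign. Leaving out a library of a group not compared cannot move a fold change in this model, and a value without a call has none to lose. The number kept is therefore no measure of stability. Some stage comparisons outside this set also changed sign, as PLIN3 did from primary to immortalized cells at atmospheric oxygen (-0.71 to 0.19).

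Replicates share only a letter. The correlation of same-letter deviations ran from -0.168 to -0.0855 in the 4 oxygen comparisons and from -0.169 to 0.246 between stages. The replicate block left every count of the 10 genes as it was, with 1 called for oxygen in each stage and 4 from primary to immortalized cells at 3% oxygen. Depth is unknown here, so what it limits cannot be stated beyond the spread of replicates.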
